A study of Mus musculus with 4 samples.

Results

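Adenosine production and signaling were followed through 9 mouse genes chosen by name for their roles, out of 27179 genes in the count table. The group held Entpd1 and Nt5e, the surface enzymes that make adenosine outside the cell, the receptor genes Adora1, Adora2a and Adora2b, the removal enzymes Ada and Adk, and the carriers Slc29a1 and Slc29a2. The rule itself used names and roles and no expression value, though results of these data were known when the genes were proposed. RNA-seq was performed on MC38, a mouse colon cancer cell line labelled wild type, with 1 library for each of 4 conditions, so no condition had a replicate. The conditions were untreated control cells under normoxia (20% oxygen), untreated control cells under hypoxia (1.5% oxygen), and cells given IFN-γ under normoxia or under hypoxia. The study's methods give IFN-γ at 5 ng/mL for 24 h for most of its experiments, and the sample labels name only IFN-γ and the oxygen condition.

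Adenosine outside the cell is made in steps from ATP. CD39, the product of Entpd1, cuts ATP and ADP down to AMP, and CD73, the product of Nt5e, cuts AMP to adenosine. Adenosine binds G protein-coupled receptors, of which the product of Adora1 lowers cAMP and those of Adora2a and Adora2b raise it. In tumors the receptor encoded by Adora2a on T cells is known to dampen their killing. Adenosine is taken out of the space around cells by the equilibrative carriers ENT1 (Slc29a1) and ENT2 (Slc29a2), then turned into inosine by adenosine deaminase (Ada) or back into AMP by adenosine kinase (Adk). In other cell types, hypoxia is known to raise Nt5e and Adora2b and to lower the carriers.

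The libraries were alike in depth, with totals between 34302971 and 34537939 counts on genes, and a floor of 3 counts came to between 0.0869 and 0.0875 CPM (counts scaled to the size of the library). The treatments were visible in known target genes. All 8 hypoxia check genes were raised by hypoxia, with a median log2 change of 1.27, and all 9 IFN-γ check genes were raised by IFN-γ, with a median of 2.43, against medians over all tested genes of 0.0047 and -0.0107. Markers of colon epithelium went against the labelled tissue. Of 10 epithelial markers, 5 were at or under 3 counts in every library, Cdh1, Cldn4 and Cdx2 were at 0, and Epcam had 2, 0, 0 and 0 counts. Krt8 was the highest of the 10, with 90 counts in control normoxia, 56 in control hypoxia, 56 in IFN-γ normoxia and 48 in IFN-γ hypoxia. The 10 summed to between 3.27 and 3.81 CPM. Of 6 fibroblast markers, none stayed at or under 3 counts and the list summed to between 38.6 and 46.4 CPM, mostly Pdgfra. Of 11 immune markers 6 were at or under 3 counts in every library, Cd8a, Itgam, Adgre1 and Ncr1 were at 0, and the list summed to between 2.83 and 3.82 CPM. Of 5 endothelial markers 3 were at or under 3 counts, Kdr and Emcn were at 0, and the list summed to between 0.817 and 1.46 CPM. In bulk RNA, fewer cells of a type and less RNA per cell cannot be told apart.

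Both carriers were lowered by hypoxia in the main test, so DNA before a transcript start of each is shown. The stretches are from RefSeq on GRCm38.p6, run 5′ to 3′ on the strand of the gene, and hold no exon of that gene in the basic set of GENCODE. Capitals mark the core ACGTG or GCGTG, or its reverse complement, the letters at the heart of hypoxia response elements. Slc29a1 covers chr17:45585200-45599618 on the minus strand, and 250 bases at chr17:45599619-45599868 precede its outermost start. Slc29a2 covers chr19:5019057-5031972 on the plus strand, and the 104 bases shown lie at chr19:5023756-5023859, before a transcript start at 5024006. They lie inside the span of the gene and not before its outermost start. The stretch was cut where an annotated exon of Slc29a2 begins, short of the start at 5024006.
Slc29a1: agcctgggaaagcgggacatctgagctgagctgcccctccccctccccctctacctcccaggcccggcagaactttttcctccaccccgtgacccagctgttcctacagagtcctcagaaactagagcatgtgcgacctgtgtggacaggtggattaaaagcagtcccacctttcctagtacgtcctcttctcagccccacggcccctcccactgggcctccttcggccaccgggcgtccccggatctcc
Slc29a2: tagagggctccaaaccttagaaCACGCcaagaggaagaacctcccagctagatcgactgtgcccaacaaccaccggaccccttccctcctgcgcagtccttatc
The Slc29a1 stretch held 0 cores and the Slc29a2 stretch held 1, printed as the reverse complement of GCGTG. Slc29a1 has 8 promoter windows of 300 bases in the RefSeq table, some of them overlapping, and 4 held a core. Over the members, 18 windows were found for 8 genes, with none for Adora2a, and 12 held a core, against 43.8% of all 32851 windows. TGACGTCA, the full cAMP response element, was in 0 of the 18, against 1.79% of all. Both strands were searched. A match in these letters is a description and not a binding site, and the lack of one says only that the letters are not in the window.

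The first question was whether MC38 cells carry transcripts of the 2 member enzymes that make adenosine outside the cell. They were at or near the floor. Entpd1, at chr19:40612366-40741602, had 0 counts in the control library under normoxia, 0 under hypoxia, 2 with IFN-γ under normoxia and 0 with IFN-γ under hypoxia. Nt5e, at chr9:88327609-88372089, had 0, 4, 2 and 0 counts in the same order. Entpd1 was thus under 3 counts in every library, and Nt5e passed the floor only in the control library under hypoxia, by 1 count. Neither could be tested, and no fold is given. Low counts were common in the table, since 41.4% of all 27179 genes had at most 6 counts over the 4 libraries together, the sum that Nt5e reached.

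The receptor genes were as low. Adora1, at chr1:134199215-134235457, had 0, 0, 2 and 0 counts, in the order control normoxia, control hypoxia, IFN-γ normoxia and IFN-γ hypoxia. Adora2a, at chr10:75316877-75334792, had 0, 4, 2 and 0, and Adora2b, at chr11:62248984-62266452, had 0, 0, 1 and 0. No receptor passed 3 counts in any library other than Adora2a in the control library under hypoxia. The exons of Adora1 overlap those of Mybph on the other strand over 20.1% of their bases, and Mybph itself had 0, 0, 1 and 0 counts. Neither Nt5e nor Adora2b rose past 4 counts with hypoxia or with IFN-γ, and a change within so few counts was not detectable at this depth. The 5 genes did not pass the filter on low counts and entered no test, which left 4 members, Ada, Adk, Slc29a1 and Slc29a2, among the 13580 genes tested. Small values in this table were even more often than odd, as 64.1% of 16997 values from 1 to 20 were even, so both reads of a fragment may have been counted, and 2 or 4 counts may then be fewer fragments.

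**Figure D1:**
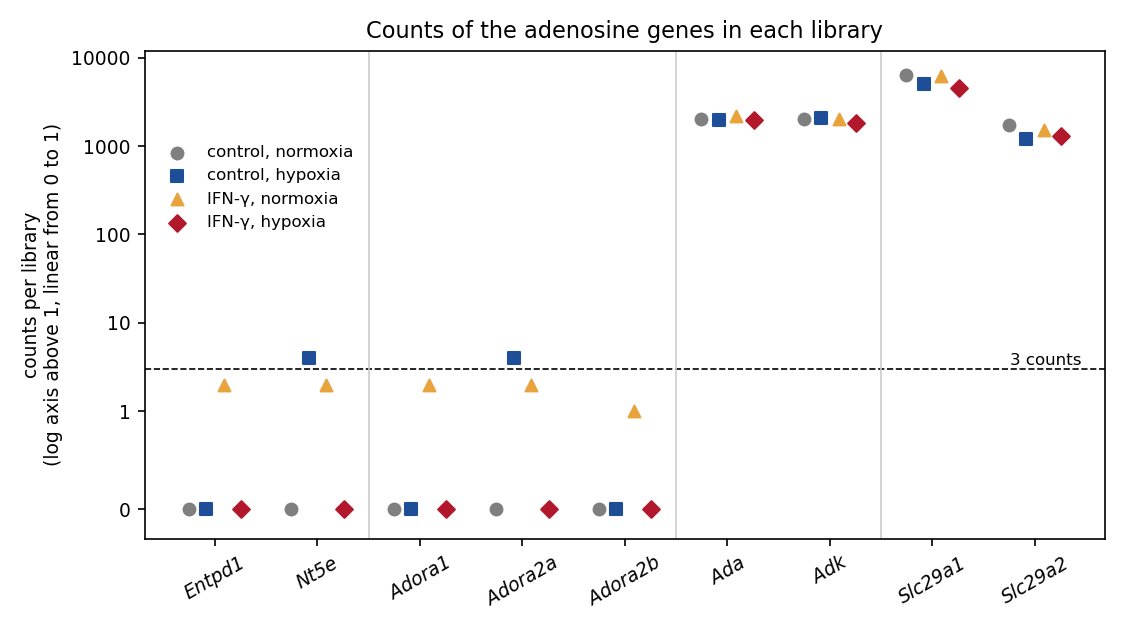
Counts of the 9 genes in each of the 4 libraries, on an axis that is logarithmic above 1 and linear from 0 to 1, with markers for the libraries and a dashed line at 3 counts. The enzymes that make adenosine outside the cell and the receptors have between 0 and 4 counts, while Ada, Adk, Slc29a1 and Slc29a2 have between 1212 and 6455.

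The enzymes that remove adenosine were expressed in every library and passed neither test. Ada, at chr2:163726571-163750239, deaminates adenosine to inosine and had 2034 counts in the control library under normoxia, 1995 in the control library under hypoxia, 2213 with IFN-γ under normoxia and 1980 with IFN-γ under hypoxia. The IFN-γ library under normoxia was the highest of the 4. Each fitted change below rests on all 4 libraries in a model with 1 term for oxygen and 1 for IFN-γ. With 1 library per condition, the spread in this test is the departure of genes from that model, pooled over genes, so its p-values do not stand in for replicate cultures. By the quasi-likelihood test of edgeR, after Benjamini-Hochberg adjustment across all tested genes, the log2 change of Ada with hypoxia was -0.09 (SE 0.07, adjusted p = 0.431) and with IFN-γ 0.07 (SE 0.07, adjusted p = 0.805). Adk, at chr14:21052574-21448569, phosphorylates adenosine to AMP and had 2037, 2067, 2049 and 1809 counts. The first 3 libraries were within a few percent of each other and the library with both stimuli was the lowest. The log2 change of Adk in the edgeR test was -0.08 with hypoxia (SE 0.07, adjusted p = 0.538) and -0.08 with IFN-γ (SE 0.07, adjusted p = 0.761).

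With hypoxia Slc29a1 fell by 25% and Slc29a2 fell by 22.7%. Slc29a1 encodes ENT1, the main equilibrative carrier of adenosine in many cells, and had 6455 counts in the control library under normoxia, 4992 in the control library under hypoxia, 6290 with IFN-γ under normoxia and 4562 with IFN-γ under hypoxia. Both hypoxic libraries lay below both normoxic ones. The log2 change was -0.42 (SE 0.06, adjusted p = 6.79e-11 by edgeR's quasi-likelihood test). Slc29a2 encodes ENT2, a carrier that also takes nucleobases, and had 1728, 1212, 1524 and 1295 counts in the same order. Its hypoxic libraries also lay below its normoxic ones, and the log2 change was -0.37 (SE 0.08, adjusted p = 2.76e-05 by the same edgeR test). Hypoxia thus lowered 2 of the 4 tested members and raised none, against 6.83% of all 13580 tested genes lowered, 8.21% raised and 15% in either direction. Neither fall reached a log2 size of 0.5. An opposite-strand gene, Gm17080, overlaps 10.4% of the exon bases of Slc29a1, and whether the counting used the strand is not given in the sources used here. Slc29a2 did not pass with DESeq2's Wald test (adjusted p = 0.0606), and when IFN-γ was taken out of the edgeR model neither carrier passed (adjusted p = 0.0548 for Slc29a1 and 0.132 for Slc29a2).

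With IFN-γ neither carrier passed the test. The log2 change with IFN-γ was -0.07 for Slc29a1 (SE 0.06, adjusted p = 0.723) and -0.03 for Slc29a2 (SE 0.08, adjusted p = 0.942) in the edgeR test. IFN-γ therefore moved 0 of the 4 tested members past the test in edgeR and 0 in DESeq2, and 0 had an unadjusted p under 0.05 in edgeR. Over all tested genes, IFN-γ moved 5.86%, with 4.76% raised and 1.1% lowered.

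**Figure D2:**
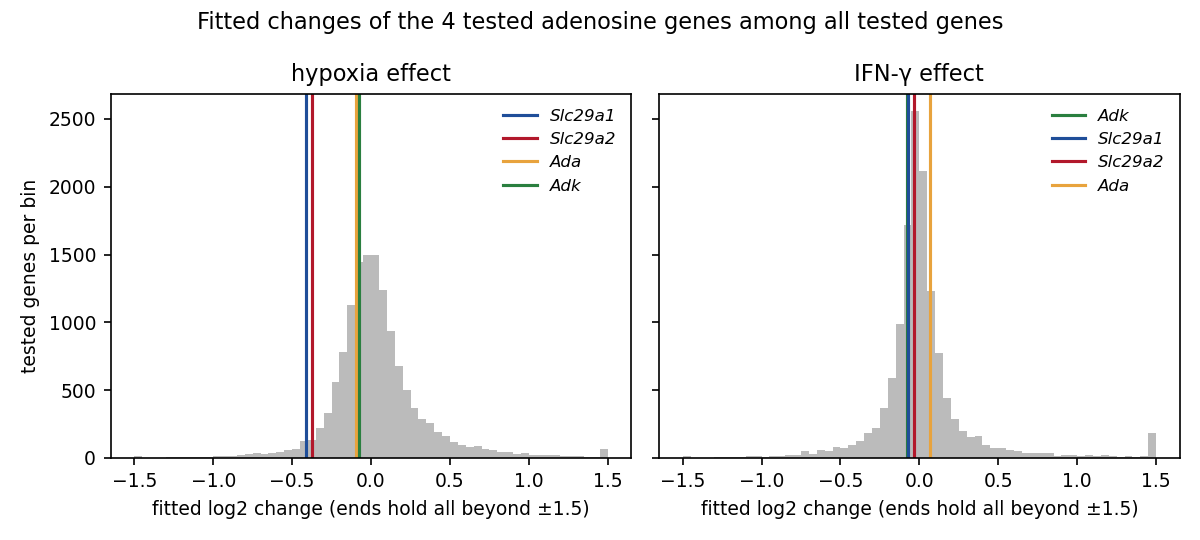
Histograms of the fitted log2 change of all 13580 tested genes with hypoxia (left) and with IFN-γ (right), in bins with all values past ±1.5 put in the end bins, and vertical lines at the 4 tested adenosine genes. With hypoxia, Slc29a1 (-0.42) and Slc29a2 (-0.37) sit in the lower tail, and with IFN-γ all 4 genes sit between -0.08 and 0.07, near the centre.

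Set among all tested genes, 3.49% had a lower log2 change with hypoxia than Slc29a1 and 4.33% had a lower one than Slc29a2. The same share was 28.6% for Ada and 32% for Adk, both within the bulk of the distribution. With IFN-γ the shares were 29.6% for Slc29a1, 41.1% for Slc29a2, 73.7% for Ada and 27.2% for Adk.

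Each pair of libraries was also compared alone, with 95% Clopper-Pearson intervals that cover counting error only and no test. Without IFN-γ, the log2 ratio of the hypoxic to the normoxic library was -0.37 for Slc29a1 (-0.42 to -0.31) and -0.51 for Slc29a2 (-0.62 to -0.40). With IFN-γ it was -0.46 for Slc29a1 (-0.52 to -0.41) and -0.23 for Slc29a2 (-0.34 to -0.13). The carriers thus lay lower under hypoxia in both pairs, and no interval reached 0. Ada had ratios of -0.03 without IFN-γ (-0.12 to 0.06) and -0.16 with it (-0.25 to -0.07), and Adk had 0.02 (-0.07 to 0.11) and -0.18 (-0.27 to -0.09). All 4 genes were therefore lower under hypoxia in the pair given IFN-γ, while in control cells the intervals of Ada and Adk held 0. In the IFN-γ pair, 21.1% of all tested genes had a lower ratio than Ada and 18.9% a lower one than Adk. For Slc29a2 and Slc29a1 these shares were 13.5% and 4.43%.

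The ratios of IFN-γ to control libraries under normoxia were 0.14 for Ada (0.05 to 0.22), 0.02 for Adk (-0.07 to 0.11), -0.02 for Slc29a1 (-0.07 to 0.03) and -0.17 for Slc29a2 (-0.27 to -0.07). Under hypoxia they were 0.00208 for Ada (-0.09 to 0.09), which turned to -0.00697 with total counts in place of TMM, -0.18 for Adk (-0.27 to -0.09), -0.12 for Slc29a1 (-0.18 to -0.06) and 0.11 for Slc29a2 (-0.01 to 0.22). No member had an interval clear of 0 on the same side in both pairs.

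**Figure D3:**
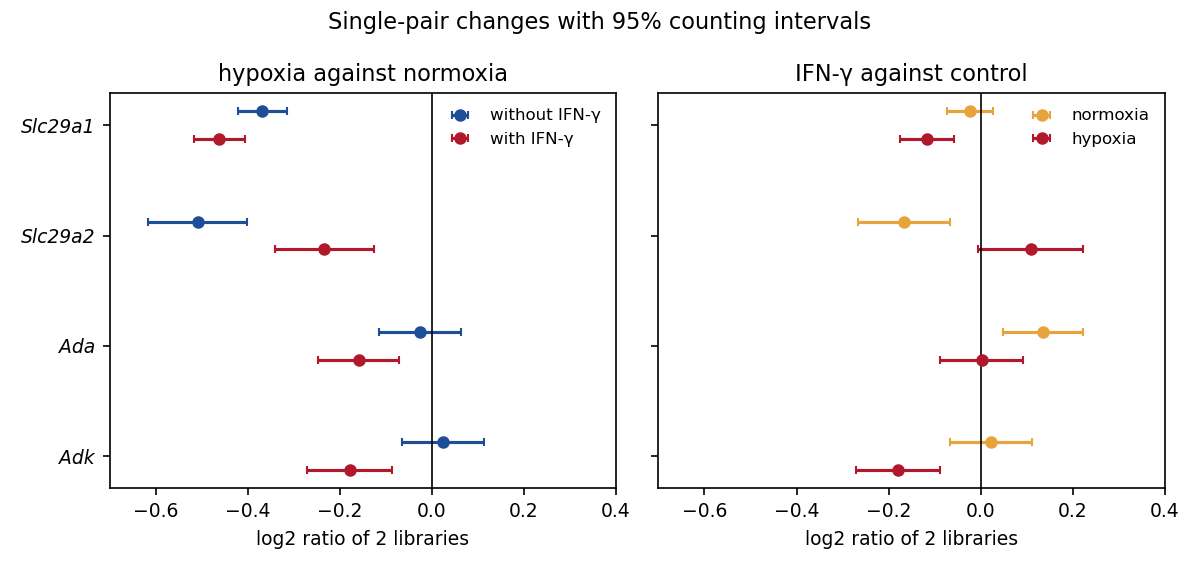
Log2 ratios of single pairs of libraries for the 4 tested genes, hypoxia against normoxia (left) and IFN-γ against control (right), with bars for 95% counting intervals. All 4 hypoxia ratios of the carriers lie at -0.23 or lower, and no gene lies clear of 0 on the same side in both IFN-γ pairs.

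The difference between the IFN-γ change under hypoxia and that under normoxia was -0.13 for Ada on the log2 scale (-0.26 to -0.01), -0.20 for Adk (-0.33 to -0.08), -0.09 for Slc29a1 (-0.17 to -0.02) and 0.28 for Slc29a2 (0.13 to 0.43). These intervals are from Poisson counting error, and the design allows no test of the difference. Across 10443 genes that had 100 counts or more in all 4 libraries, 34.5% lay outside their own counting interval and the central 95% ran from -0.36 to 0.40, which held all 4 members. If both reads of a fragment were counted, the intervals of Ada (-0.31 to 0.04) and Slc29a1 (-0.20 to 0.01) hold 0.

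Levels were compared between genes as CPM per kilobase of merged exons in the basic set of GENCODE vM21, so the order of genes depends on these lengths. Slc29a1 was the highest member in every library, at 70.2 in the control library under normoxia, 54.4 in the control library under hypoxia, 69.1 with IFN-γ under normoxia and 50.1 with IFN-γ under hypoxia. Ada followed, with levels between 34.2 and 38.2 CPM per kilobase, and then Adk with 27.1 to 30.6. Slc29a2 was the lowest of the expressed members, with 19.0, 13.4, 16.9 and 14.4. The ranges of these 4 genes over the libraries did not overlap, so their order was the same in each library. The 5 genes for production outside the cell and reception reached at most 0.0445 CPM per kilobase, the value of Adora2a in the control library under hypoxia. Their own order cannot be told apart from counting error. Slc29a1 stood 3.69 times above Slc29a2 in the control library under normoxia, 4.07 times in the control library under hypoxia, 4.08 times with IFN-γ under normoxia and 3.48 times with IFN-γ under hypoxia. The ratio of Adk to Ada was 0.866, 0.896, 0.801 and 0.79 in that order. Ranked by mean CPM, Slc29a1 exceeded 90.1% of all tested genes, Ada 70.7%, Adk 69.9% and Slc29a2 61.9%.

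The genes most like Slc29a1 over the 4 libraries were sought among 10442 others with at least 100 counts in each, by the Euclidean distance between centred log2 CPM values. The nearest were Zbtb42, with a distance of 0.0273, Trmt61a with 0.028, Ice2 with 0.0391, Eef1aknmt with 0.0463 and Rcl1 with 0.0503. Trmt61a, a subunit of a tRNA methyltransferase, had 1997, 1532, 1952 and 1438 counts. Rcl1, a factor in the processing of ribosomal RNA, had 3207, 2510, 3254 and 2357. The distance is a description over 4 points, and these genes were picked for their likeness to Slc29a1.

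Around the 9 members, 114 other genes of the pathway were followed in 7 lists, and 81 of them passed the filter. Hypoxia raised 7 of the 81 (8.64%, against 8.21% of all tested genes) and lowered 5 (6.17%, against 6.83%), by the edgeR test at an adjusted p under 0.05. IFN-γ raised 3 (3.7%, against 4.76%) and lowered 0 (against 1.1%). DESeq2 lowered 0 as well, and edgeR with no filter on low counts lowered 1. At an unadjusted edgeR p under 0.05, 15 of the 81 had a change with IFN-γ in either direction, 9 of them negative, and 23 had 1 with hypoxia. Over all tested genes, in either direction, 14% had such a p for IFN-γ and 26.5% for hypoxia. Unadjusted counts in either direction, here and below, are to be read against these 2 shares. The median log2 change of the 81 was 0.04 with hypoxia and -0.06 with IFN-γ. These shares were near those of all tested genes.

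Genes that release ATP and the other surface enzymes that cut nucleotides formed a list of 16, with 6 tested and 0 past either edgeR test, where 2 for hypoxia and 1 for IFN-γ had an unadjusted p under 0.05. Enzymes that could stand in for CD39 and CD73 at the surface are named here after their values were seen. The counts in the same order of libraries were 0, 2, 2 and 0 for Entpd2, 0 in every library for Entpd3, 10, 0, 4 and 4 for Alpl, and 0, 0, 4 and 4 for Enpp1. None of these enzymes reached more than 10 counts. Enpp2, of the same list and not among them, had 33, 38, 35 and 35 counts and passed neither edgeR test. Enpp3 had 5, 2, 2 and 0, Acp3 had 2, 6, 4 and 8, and Entpd8 had 1, 0, 0 and 0. Cd38, which starts a route to AMP from NAD, had 118, 160, 82 and 123 counts and log2 changes of 0.51 with hypoxia (adjusted p = 0.0686 in the edgeR test) and -0.43 with IFN-γ. Of the intracellular and secreted ENTPD family 3 of 4 genes were tested, and of the other adenosine receptors and nucleoside carriers 2 of 7. None of these 5 passed either test in edgeR, with 2 for hypoxia and 2 for IFN-γ at an unadjusted p under 0.05. Entpd4, the untested gene of the ENTPD family, had 2, 68, 1 and 4 counts, so its high value rests on the control library under hypoxia alone. Adora3, the remaining adenosine receptor, had 3, 2, 0 and 0 counts. Of 14 receptors for ATP and other nucleotides, 7 were tested and 0 passed either edgeR test, with 1 for hypoxia and 2 for IFN-γ at an unadjusted p under 0.05.

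Inside the cell, 24 of 27 purine enzymes were tested, and the members of this list moved in both directions. Hypoxia raised 3 of the 24 and lowered 4, against 8.21% raised and 6.83% lowered over all tested genes. For hypoxia, 9 of the 24 had an unadjusted edgeR p under 0.05. Ak4, a mitochondrial adenylate kinase, had 3197 counts in the control library under normoxia, 8109 in the control library under hypoxia, 3027 with IFN-γ under normoxia and 7491 with IFN-γ under hypoxia. Both hypoxic libraries were far above both normoxic ones, with a log2 change of 1.33 (SE 0.06, adjusted p = 6.99e-106 by the edgeR test). Adssl1, an enzyme on the way from IMP to AMP, had 29, 56, 25 and 50 counts and rose by 0.97 on the log2 scale (SE 0.36, adjusted p = 0.0443 in edgeR). This call remained in 2 of 6 other fits, and was lost for example when DESeq2 size factors replaced TMM in edgeR (adjusted p = 0.0634). Ampd2, which deaminates AMP to IMP and so draws on the pool from which adenosine is made in the cell, had 7079, 5317, 6682 and 5868 counts. It was lower in both hypoxic libraries and fell by 0.30 on the log2 scale (SE 0.06, adjusted p = 6.02e-06). Nt5c3b, a cytosolic nucleotidase, had 1684, 1492, 1742 and 1406 counts and fell by 0.24 (SE 0.07, adjusted p = 0.0126). The call on Nt5c3b was lost with DESeq2 (adjusted p = 0.294) and without IFN-γ in the model (0.176), and that on Ampd2 only in the latter fit (0.141). The other 3, outside the naming rule, were Adsl (-0.23), Ahcy (-0.17) and Hprt (0.18). Of 7 other fits, the call remained in 6 for Adsl, 5 for Ahcy and 4 for Hprt. Of the 31-base words of Ahcy, 71.4% also occur in other annotated genes, so its counts are uncertain.

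IFN-γ raised 2 of the same 24 purine enzymes and lowered 0, against 4.76% raised and 1.1% lowered over all tested genes. For IFN-γ, 4 of the 24 had an unadjusted edgeR p under 0.05. Xdh, which oxidizes hypoxanthine to xanthine and uric acid, had 914 counts in the control library under normoxia, 843 in the control library under hypoxia, 1702 with IFN-γ under normoxia and 1764 with IFN-γ under hypoxia. Both IFN-γ libraries were above both controls, with a log2 change of 0.99 (SE 0.08, adjusted p = 8.3e-35 in the edgeR test). Pnp, which cuts inosine to hypoxanthine, had 3470, 3546, 4465 and 4124 counts. It rose by 0.30 on the log2 scale (SE 0.06, adjusted p = 2.51e-05), and 22.9% of its 31-base words also occur in other genes. The rise of Xdh passed in each of 7 other fits, and that of Pnp in 6 of 7, all but the model without oxygen (adjusted p = 0.253 in edgeR).

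**Figure D4:**
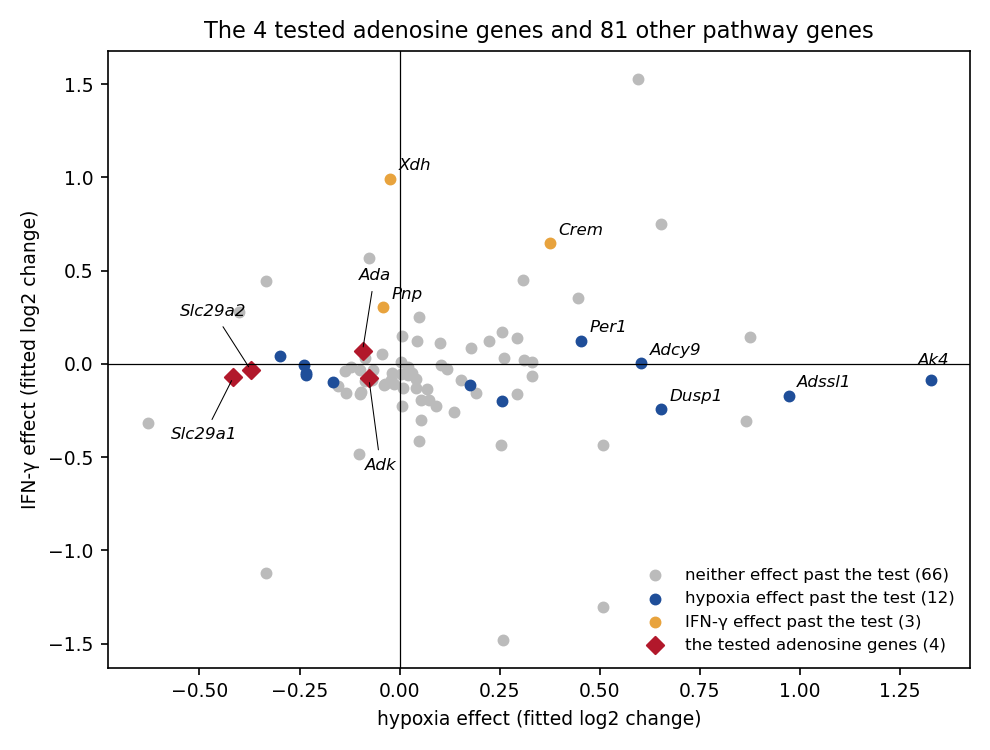
Fitted log2 change with hypoxia (horizontal) against that with IFN-γ (vertical) for the 4 tested adenosine genes and 81 other tested pathway genes, colored by which effect passed the edgeR test. Ak4 (1.33) lies farthest to the right, Xdh is the highest colored point (0.99), and both carriers lie on the left at -0.42 and -0.37. The smaller hypoxia effects carry no name.

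Behind the receptors, 24 of 29 G protein, adenylyl cyclase and protein kinase A genes were tested. Hypoxia raised 2 of the 24 and lowered 1, against 8.21% raised and 6.83% lowered over all tested genes. For hypoxia, 4 of these 24 had an unadjusted edgeR p under 0.05. Adcy9, an adenylyl cyclase, had 82, 117, 76 and 123 counts in the order of libraries used above and rose by 0.60 on the log2 scale (SE 0.22, adjusted p = 0.0435 in edgeR). Prkar2b, a regulatory subunit of protein kinase A, had 1658, 2075, 1503 and 1707 counts and rose by 0.26 (SE 0.07, adjusted p = 0.00536). Crtc1, a coactivator of CREB, had 1225, 932, 1047 and 994 counts and fell by 0.23 (SE 0.08, adjusted p = 0.0304). The call on Adcy9 remained in 1 of 6 other fits, that on Crtc1 in 0 of 7 and that on Prkar2b in 5 of 7, being lost with DESeq2 (adjusted p = 0.222) and without IFN-γ in the model (0.309). IFN-γ moved 0 of the 24 past the edgeR test, and 4 had an unadjusted p under 0.05.

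Of 17 genes known to respond to cAMP, 15 were tested, and their median log2 change with hypoxia was 0.29, against 0.0047 over all tested genes. Hypoxia raised 2 of the 15 and lowered 0, against 8.21% raised and 6.83% lowered over all tested genes. At an unadjusted edgeR p under 0.05, 5 of the 15 had a change with hypoxia, against 26.5% of all tested genes. Per1, a clock gene with a cAMP response element, had 927, 1110, 872 and 1361 counts and rose by 0.45 on the log2 scale (SE 0.08, adjusted p = 8.16e-07 in the edgeR test). Dusp1, a phosphatase of MAP kinases, had 222, 326, 172 and 291 counts and rose by 0.65 (SE 0.14, adjusted p = 0.000116). Both genes were higher in each hypoxic library than in either normoxic one. The call on Dusp1 was lost with DESeq2 (adjusted p = 0.157) and without IFN-γ in the model (0.16), and that on Per1 only in the latter fit (0.149). IFN-γ raised 1 of the 15, against 4.76% of all tested genes, and 2 of the 15 had an unadjusted edgeR p under 0.05. The gene raised was Crem, a member of the CREB family. It had 162, 206, 247 and 325 counts and rose by 0.65 (SE 0.15, adjusted p = 0.000376 in the edgeR test). The call on Crem was lost with DESeq2 (adjusted p = 0.487) and without oxygen in the model (0.438). These genes also respond to other signals, and the part of adenosine receptors in their changes was not tested; the receptor genes themselves had at most 4 counts.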

How the data were processed

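Poly-A RNA of MC38 cells was made into strand-specific libraries and sequenced from both ends on the DNBSEQ platform. The paper itself describes the sequenced material as total RNA and names no step of poly-A selection. The authors aligned the reads with HISAT2, and the submitters' processing notes name featureCounts and the build mm10; the annotation, the strand setting and the handling of multi-mapped reads are not given in the sources used here. The authors deposited raw counts per gene in 1 table of 27179 NCBI gene IDs, not normalized, of which 25275 were matched to a symbol in RefSeq GRCm38.p6, the assembly also known as mm10. No per-sample column was left without a sample.

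These counts were tested by quasi-likelihood in edgeR (version 4.0.16 in R 4.3.3), with TMM normalization, edgeR's filter at its minimum of 10 counts, an additive model of oxygen and IFN-γ with 1 residual degree of freedom per gene, and Benjamini-Hochberg adjustment over 13580 tested genes at 0.05. Pooled over genes the dispersion came to 0.00222 (coefficient of variation 4.71%). Departure from additivity counts as spread, and culture-to-culture variation was not measured on its own. Ratios of single pairs compare CPM after TMM, each with 0.5 counts added, and carry 95% Clopper-Pearson intervals. These and the floor of 3 counts cover counting error only. Levels between genes used merged exons of the basic set of GENCODE vM21. Motifs and sequences came from RefSeq promoter windows. The code was tested on simulated data.

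All 9 members are named, and of each other list up to 4 genes past the test with the largest changes for each stimulus, with 5 genes nearest in pattern to the called member that changed most. The members, the lists and the tests were chosen with earlier results of these data known. Alternatives were DESeq2's size factors or total counts in place of TMM, the Wald test of DESeq2 (version 1.42.0), no filter or at least 10 counts in every library, a model without the other stimulus, a log2 size of at least 0.5 in addition, 5 counts added, and, chosen after seeing that small counts were mostly even, halved counts.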

Additional observations from a re-analysis of the deposited data

Results flagged for a closer look

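Some changes pointed in opposite directions in the 2 pairs of libraries that measure them, and the difference was not tested because each pair holds 1 library per condition. The IFN-γ log2 change of Adk was -0.18 under hypoxia (-0.27 to -0.09, 95% counting interval) and 0.02 under normoxia (-0.07 to 0.11), and the latter turned to -0.00138 with total counts in place of TMM, so that both pairs then pointed down. The hypoxia log2 change of Adk was likewise -0.18 with IFN-γ (-0.27 to -0.09) and 0.02 without it (-0.07 to 0.11), and both rest on the library given both stimuli, with 1809 counts against 2037 to 2067 in the others. The IFN-γ log2 change of Slc29a2 was 0.11 under hypoxia (-0.01 to 0.22) and -0.17 under normoxia (-0.27 to -0.07). The 2 results on Adk give 1 and the same difference. That difference (-0.20) and the one of Slc29a2 (0.28) lay within the central 95% of the same difference over 10443 well-counted genes (-0.36 to 0.40).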

How the results depend on the processing

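Counts of members past the test with IFN-γ did not move under any alternative, and the fitted changes of the 4 tested members kept their sign in all 7 other fits, though not in each single pair of libraries. Hypoxia lowered 2 members, which became 1 with DESeq2's Wald test, 0 without IFN-γ in the model and 0 with a log2 size of at least 0.5 in addition; the adjusted p ran from 4.83e-07 to 0.0548 for Slc29a1 and from 0.000685 to 0.132 for Slc29a2 over 7 alternatives in edgeR and DESeq2. Of the other pathway genes, hypoxia raised 7, or 2 with DESeq2 and 1 without IFN-γ in the model, and lowered 5, or 2 and 0 in the same fits. IFN-γ raised 3 of them, or 2 with DESeq2 and 1 without oxygen in the model, and lowered 0, or 1 with no filter. Over all tested genes, DESeq2 and the model without the other stimulus gave 348 and 239 raised by IFN-γ in place of 647, 341 and 150 raised by hypoxia in place of 1115, and 216 and 26 lowered by hypoxia in place of 927. The 149 genes lowered by IFN-γ became 18 and 3 in these fits, 99 with DESeq2's size factors in edgeR, 71 with no filter and 74 with at least 10 counts in every library. The causes were not tested, except that the model without the other stimulus counts that stimulus as spread. The additive model compares each stimulus within the states of the other, and the model without the other stimulus drops that block. Leaving out any library leaves no residual degree of freedom, so the single pairs of libraries stand in its place. Depth limits the 5 genes at or near 3 counts, for which neither presence nor a change within so few counts can be told.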
